A study of Mus musculus with 18 samples.

Results

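The circular RNA (circRNA) described here comes from exon 2 of mouse Pvt1, a long non-coding RNA gene. Its members were taken by position: the listed circRNA with ends at chr15:62107148-62107465 (GRCm38), together with any other that overlaps the Pvt1 gene. No other did, so it is 1 of the 474 circRNAs listed, measured in 18 liver libraries. It was chosen by its CPM values in these same libraries, which differed between the groups. Its levels and differences are therefore given as descriptions, without a test.

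The livers came from male C57BL/6 mice that were 6 weeks old at purchase, with 6 mice in each of 3 groups and a course of 12 weeks. Cirrhosis-PTH mice received intraperitoneal injections of CCl4 (carbon tetrachloride, which injures the liver) at 10% in corn oil and PTH (Pien Tze Huang, a traditional Chinese medicine) by mouth each day at 0.25 mg per g of body weight. Cirrhosis mice received the same CCl4 injections and water in place of PTH. Control mice received corn oil alone and water. All injections were 10 µl per g, 2 times a week. There was no group given PTH without CCl4, so the medicine was not measured in uninjured liver. The series was set up to ask how the liver's non-coding RNAs differ in cirrhosis and under the medicine. RNA was sequenced after removal of ribosomal RNA, and each value counts the reads that cross a back-splice junction, scaled by the library total (CPM).

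A circRNA forms when the spliceosome joins the end of an exon back to the start of the same or an earlier exon. The closed loop has no free ends and is usually more stable than linear RNA. Pvt1 lies next to Myc, a gene for a growth-promoting transcription factor. In human tumours PVT1 is often gained together with MYC, and in mouse the locus is a known site of tumour-associated viral insertions and translocations. In human cells the circle of PVT1 exon 2 is abundant, and it has been described as binding microRNAs of the let-7 family. The values here report the circle alone: linear Pvt1 RNA was not analysed here.

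In the GENCODE M21 annotation of GRCm38, Pvt1 spans chr15:62037986-62378096 on the plus strand and is classed as a long intergenic non-coding RNA. Myc ends 47612 bp before its start. The circle takes in the whole of exon 2, which is 318 bases long, and holds no annotated coding sequence. Of 10 annotated Pvt1 transcripts, 4 contain an exon with exactly these ends, and 2 more contain one with the same start and a later end. The run below joins the last 150 bases of the exon to its first 150, as they meet in the circle. It is shown because only a read across this junction counts towards the values, and the capitals mark the 10 bases on each side of the junction. The 18 bases in the middle of the exon are not printed.
Pvt1 back-splice junction: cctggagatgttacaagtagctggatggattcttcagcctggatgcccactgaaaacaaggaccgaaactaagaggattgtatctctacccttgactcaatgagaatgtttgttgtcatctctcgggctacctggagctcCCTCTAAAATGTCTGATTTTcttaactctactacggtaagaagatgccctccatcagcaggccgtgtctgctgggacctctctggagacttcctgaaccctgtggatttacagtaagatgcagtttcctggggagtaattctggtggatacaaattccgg

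The circle was searched for matches to the seeds (bases 2 to 8) of 15 microRNA families known from liver, fibrosis or human circPVT1 work, with mature sequences from RefSeq. miR-122, miR-143 and miR-145 were not searched. None of the 15 seed complements was found in the 318-base circle, junction included. For let-7 the motif searched was CTACCTC on the RNA strand, which 4.06% of 197 windows of the same length from other listed circRNAs contained. On the opposite strand, which is not part of the RNA, 1 of the 15 motifs was found, that of miR-214. The let-7 microRNA is printed with its seed in capitals, because the human circle is best known for it.
let-7a-5p: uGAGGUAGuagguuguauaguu
A shorter motif of 6 letters, CTACCT, which pairs with bases 3 to 8 of let-7a-5p, occurred 1 time, at position 296 of the exon. It was searched for after the sequence had been seen, was absent from the opposite strand, and was found in 7.11% of the same 197 windows. Seeds missing from this window say only that these letters are not in it.

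The libraries were shallow for circRNA. The 474 listed circRNAs held 794 to 8431 reads per library, and 1 read was worth 0.0343 to 0.370 CPM. Between 223 and 405 of the circRNAs were detected in a library, and their summed level ran from 99.5 to 435 CPM. Every listed circRNA was above 0 in at least 9 libraries. The table holds no circRNA of a liver stellate, endothelial or bile duct marker gene, and of 9 hepatocyte marker genes only Egfr had one, so the tissue label could be checked against these markers only in small part.

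The Pvt1 circle was found in all 18 libraries. It ranked 9th of 474 by the mean of the 3 group means, at 2.68 CPM, a rank that rests on the Cirrhosis livers, since it was 20th at the highest in any liver of the other groups. Its level averaged 1.29 ± 0.763 CPM in Cirrhosis-PTH livers, 5.60 ± 4.11 CPM in Cirrhosis livers and 1.15 ± 0.440 CPM in Control livers (SD, n = 6 each). The values rest on 93 Pvt1 reads in Cirrhosis-PTH livers, 186 in Cirrhosis livers and 42 in Control livers.

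In Cirrhosis-PTH livers 1 to 6 the level was 0.526, 2.36, 1.16, 0.373, 1.83 and 1.47 CPM, from 3, 10, 9, 5, 23 and 43 reads. In Cirrhosis livers 1 to 6 it was 2.68, 1.91, 1.04, 9.43, 9.13 and 9.41 CPM, from 20, 18, 8, 39, 50 and 51 reads. In Control livers 1, 2, 3, 6, 7 and 8 it was 1.48, 1.18, 1.67, 0.959, 0.408 and 1.19 CPM, from 4, 4, 11, 5, 4 and 14 reads. Cirrhosis livers 4, 5 and 6 stood far above the other 15 libraries, and the other 3 Cirrhosis livers lay in or just above the range of the Cirrhosis-PTH and Control livers.

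Exact Poisson 95% intervals, which cover counting error only and not the variation between mice, describe the precision of each value. The lowest lower limit among Cirrhosis livers 4 to 6 was 6.70 CPM. The highest upper limit among the other 15 libraries was 4.34 CPM, in Cirrhosis-PTH liver 2. The 3 livers are described as the highest of these values, and the intervals are no test of a split. In bulk tissue, a change in the number of cells that carry the circle and a change in the amount per cell cannot be told apart.

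**Figure D1:**
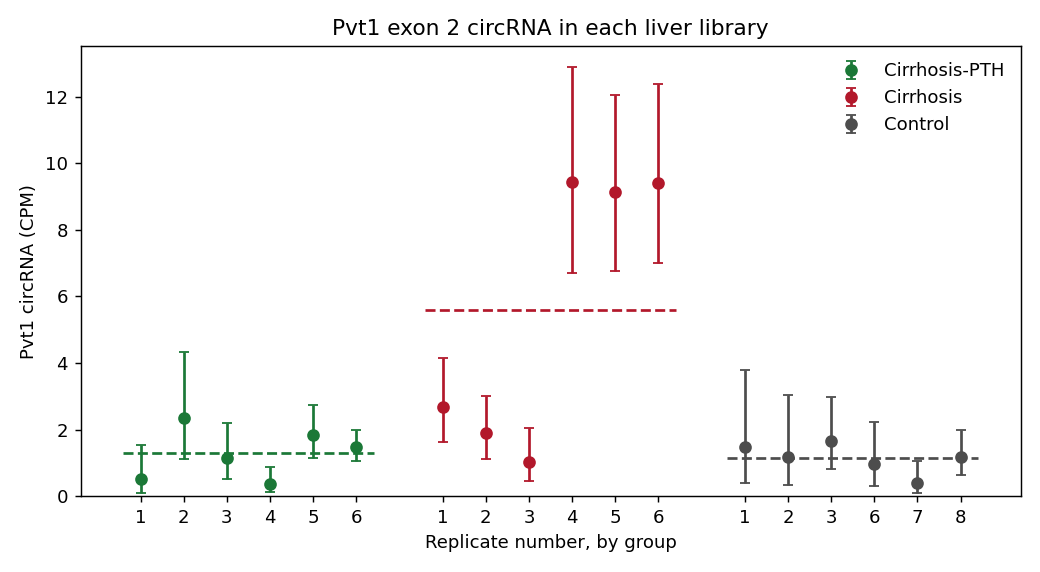
Level of the Pvt1 exon 2 circRNA in CPM (vertical axis) in each of the 18 livers, by group and replicate number. Points are the libraries, bars are exact Poisson 95% intervals, and dashed lines are group means. Cirrhosis livers 4, 5 and 6 lie between 9.13 and 9.43 CPM, and the other 15 livers between 0.373 and 2.68 CPM.

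Within the libraries, the rank of the circle followed the same split. In Cirrhosis livers 4 and 5 it was the 2nd most abundant of all listed circRNAs, and in Cirrhosis liver 6 the 4th. In Cirrhosis livers 1, 2 and 3 it ranked 11th, 16th and 59th. Its rank ran from 24th to 177th in Cirrhosis-PTH livers and from 20th to 115th in Control livers.

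The share of listed back-splice reads that came from Pvt1 gives the level relative to the other circles of the same library. This share averaged 0.519 ± 0.223% in Cirrhosis-PTH livers, 1.52 ± 0.857% in Cirrhosis livers and 0.461 ± 0.189% in Control livers (SD, n = 6 each). It was 0.913, 0.923, 0.448, 2.45, 2.1 and 2.30% in Cirrhosis livers 1 to 6. It ran from 0.159 to 0.773% in Cirrhosis-PTH livers and from 0.238 to 0.728% in Control livers. The same 3 Cirrhosis livers were high on this scale, and Cirrhosis livers 1 and 2 were also above every Cirrhosis-PTH and Control liver.

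The summed level of all listed circRNAs also differed between libraries, and it moved with the Pvt1 level in part. It averaged 247 ± 87.9 CPM in Cirrhosis-PTH livers, 327 ± 96.6 CPM in Cirrhosis livers and 259 ± 91.9 CPM in Control livers. In Cirrhosis livers 4, 5 and 6 it was 385, 435 and 409 CPM, against 293, 207 and 231 CPM in Cirrhosis livers 1, 2 and 3. The totals behind the CPM, worked out from the CPM of 1 read, were 4137928, 5475347 and 5422286 in Cirrhosis livers 4, 5 and 6. In Cirrhosis livers 1, 2 and 3 they were higher, at 7464024, 9431580 and 7727940. Within the Cirrhosis group the split in Pvt1 thus coincides with these totals, and their part in it was not tested. In the other groups, totals below 5475347 came with low Pvt1. Control livers 1, 2 and 6 had totals of 2706146, 3378460 and 5213790, with 1.48, 1.18 and 0.959 CPM of Pvt1. Cirrhosis-PTH liver 2 had a total of 4235961 with 2.36 CPM. Control liver 2 had a summed level of 413 CPM with a Pvt1 share of 0.287%. Relative to Control, the group mean of Cirrhosis was 4.88 times as high in CPM and 3.30 times as high as a share of listed reads, so the difference was smaller once the summed level was divided out.

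**Figure D2:**
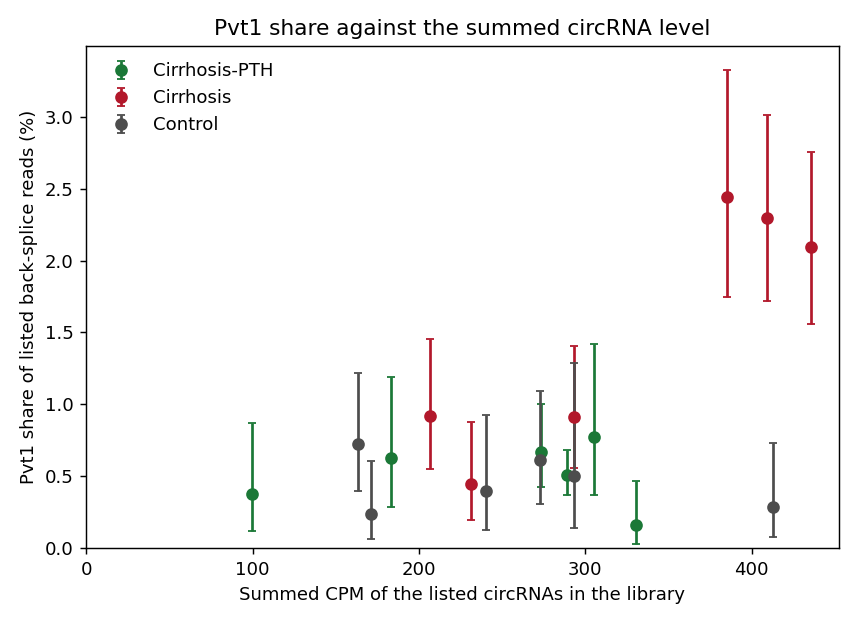
Share of listed back-splice reads that came from Pvt1 (vertical axis, percent, with exact binomial 95% intervals) against the summed CPM of all listed circRNAs (horizontal axis), 1 point per liver, coloured by group. Cirrhosis livers 4, 5 and 6 have shares of 2.1 to 2.45% at 385 to 435 CPM, while Control liver 2 has 0.287% at 413 CPM.

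Cirrhosis was set against Control to ask what CCl4 injury does to the liver's circRNAs. The Pvt1 circle was higher in Cirrhosis livers, with a fitted difference of 1.81 ± 0.59 (SE) on the scale of log2(CPM + 0.143). Of the 6 Cirrhosis livers, 5 were above every Control liver, and Cirrhosis liver 3 lay inside the Control range. Across all 474 circRNAs the fitted differences ran from -2.14 to 2.63 with a median of 0.12, and Pvt1 was 11th from the top. With limma and Benjamini-Hochberg adjustment, 0 of 474 circRNAs (0%) passed an adjusted p of 0.05, and 58 (12.2%) had an unadjusted p under 0.05. On recovered reads edgeR called 0 and DESeq2 called 1, that of Ube2g2. No p is given for Pvt1 itself, because this contrast was used to choose it.

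Cirrhosis-PTH was set against Cirrhosis to ask what the medicine changes in injured liver. The Pvt1 circle was lower in Cirrhosis-PTH livers, with a mean 0.230 times that of Cirrhosis livers and a fitted log2 difference of -1.78 ± 0.59 (SE). As a share of listed reads the mean was 0.341 times that of Cirrhosis livers. All 6 Cirrhosis-PTH livers were below the Cirrhosis mean, but only livers 1 and 4 were below every Cirrhosis liver, so the groups overlapped over most of the Cirrhosis-PTH range. Fitted differences over all 474 circRNAs ran from -2.59 to 1.59 with a median of -0.17, and Pvt1 was 10th from the bottom. No circRNA passed the adjusted threshold in limma (0%), and 34 (7.17%) had an unadjusted p under 0.05. On recovered reads edgeR and DESeq2 each called 1, that of Wac in both. This comparison shares the 6 Cirrhosis livers with the one against Control, so the opposite signs of the 2 Pvt1 differences are not separate observations.

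Cirrhosis-PTH was also set against Control. Here the Pvt1 levels lay close together, with a ratio of means of 1.12, a ratio of shares of 1.13 and a fitted log2 difference of 0.03 ± 0.59 (SE). Of the 6 Cirrhosis-PTH livers, 2 were above every Control liver and 1 was below every Control liver. Pvt1 was 231st from the top of 474 in this comparison, with a median of -0.01 over all circRNAs. In limma 0 circRNAs (0%) passed the adjusted threshold, 25 (5.27%) had an unadjusted p under 0.05, and edgeR and DESeq2 also called 0. The standard error leaves room for a difference in either direction. In the order of group means, Cirrhosis came first, then Cirrhosis-PTH, then Control, and the means of Cirrhosis-PTH and Control differed by less than the SD of either group.

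**Figure D3:**
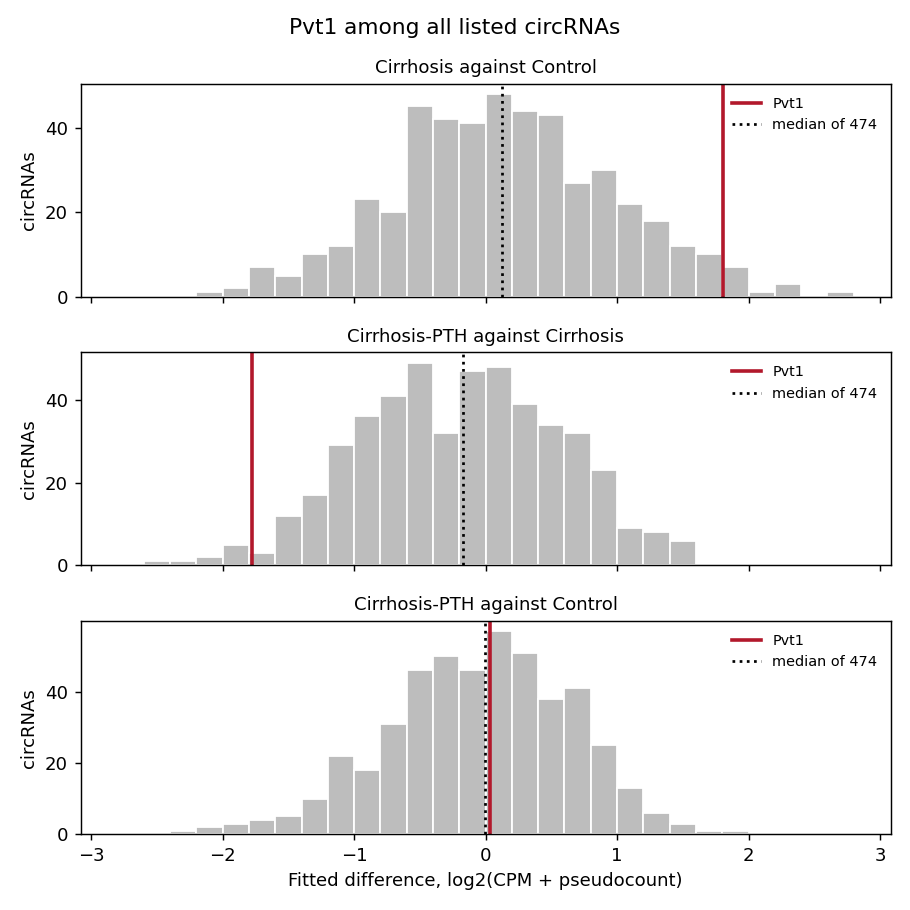
Numbers of circRNAs (vertical axis) by fitted difference on the scale of log2(CPM + 0.143) (horizontal axis), for Cirrhosis against Control, Cirrhosis-PTH against Cirrhosis and Cirrhosis-PTH against Control, with 474 circRNAs in each panel. The red line is Pvt1, at 1.81, -1.78 and 0.03, and the dotted line is the median of all, at 0.12, -0.17 and -0.01.

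The spread of Pvt1 inside each group was set beside that of the 26 circRNAs above 0 in all 18 libraries. In Cirrhosis-PTH livers its highest value was 6.33 times its lowest, where the median circRNA had 5.79. In Cirrhosis livers this ratio was 9.10 for Pvt1 and 4.87 for the median, and Pvt1 had the 6th widest range of the 26. In Control livers it was 4.09 for Pvt1 and 5.08 for the median. The Cirrhosis livers thus varied more in Pvt1 than in most well detected circles. In Control livers Pvt1 had the 15th widest range of the 26, near the middle, and the 21st highest coefficient of variation. Its coefficient of variation was 59.3% in Cirrhosis-PTH livers, 73.5% in Cirrhosis livers and 38.3% in Control livers, against medians of 54.1%, 57.8% and 57.7% over the 26.

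The circRNAs next to Pvt1 in mean level show how far this pattern is shared among abundant circles. The circle of Eed, a core subunit of Polycomb repressive complex 2, averaged 2.29 ± 1.12 CPM in Cirrhosis-PTH livers, 5.0 ± 2.35 CPM in Cirrhosis livers and 1.46 ± 1.0 CPM in Control livers. The circle of Ogdh, a subunit of the 2-oxoglutarate dehydrogenase of the citric acid cycle, averaged 1.67 ± 0.620, 2.92 ± 1.71 and 3.14 ± 1.52 CPM in the same order of groups. Eed was thus high in Cirrhosis as Pvt1 was, and Ogdh was not. The circle of Nfix, a nuclear factor I transcription factor, averaged 2.43 ± 1.06 CPM in Cirrhosis-PTH livers, 2.38 ± 2.39 CPM in Cirrhosis livers and 2.43 ± 2.14 CPM in Control livers. The circle of Ttc39c, a tetratricopeptide repeat protein, averaged 3.81 ± 1.81 CPM in Cirrhosis-PTH livers, 1.98 ± 1.5 CPM in Cirrhosis livers and 2.84 ± 2.12 CPM in Control livers. For Ttc39c, unlike Pvt1, Cirrhosis had the lowest of the 3 means.

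Likeness to Pvt1 was measured as Spearman's rank correlation of log2(CPM + 0.143) over the 18 libraries, for the 270 other circRNAs above 0 in at least 12 libraries. The points share library depth and the summed circRNA level, and the correlation is given as a description. The median rank correlation was 0.14, and 20 circRNAs were above 0.5. The most alike was the circle of exons 2 to 4 of Vapa (chr17:65592291-65595054), which encodes a membrane protein of the endoplasmic reticulum, with a rank correlation of 0.85 and Pearson's r = 0.88. It read 0.526, 1.89, 0.642, 0.298, 1.11 and 1.10 CPM in Cirrhosis-PTH livers 1 to 6 and 1.61, 0.848, 1.04, 2.42, 6.57 and 4.8 CPM in Cirrhosis livers 1 to 6. In Control livers 1, 2, 3, 6, 7 and 8 it read 1.85, 0.592, 1.21, 0.767, 0.612 and 0.255 CPM. Cirrhosis livers 4, 5 and 6 were the 3 highest libraries for Vapa too, and the 6 Cirrhosis-PTH livers stood in the same order for both circles.

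The next most alike were the circles of Med13l (a subunit of the Mediator kinase module; rank correlation of 0.75), Ubl5 (a ubiquitin-like protein that acts in splicing; 0.71), Gsap (which acts on gamma-secretase; 0.71), Etv6 (an ETS-family transcriptional repressor; 0.70), Rmnd5a (a subunit of the CTLH ubiquitin ligase; 0.69), Snx5 (a sorting nexin of the endosome; 0.68) and Lrrc58 (0.66). The Med13l circle (chr5:118593333-118593570) is, like that of Pvt1, a single exon 2. It averaged 1.89 ± 1.14 CPM in Cirrhosis-PTH livers, 2.92 ± 1.28 CPM in Cirrhosis livers and 1.93 ± 0.325 CPM in Control livers, so its groups lay closer together than those of Pvt1. The Snx5 circle (chr2:144255340-144257993) averaged 0.265 ± 0.240 CPM in Cirrhosis-PTH livers, 1.37 ± 0.788 CPM in Cirrhosis livers and 0.173 ± 0.233 CPM in Control livers. It was listed at 0 in 2 Cirrhosis-PTH and 3 Control livers, and above 0 in all 6 Cirrhosis livers. The Etv6 circle (chr6:134115220-134137417) averaged 0.141 ± 0.286, 1.05 ± 0.945 and 0.334 ± 0.287 CPM in Cirrhosis-PTH, Cirrhosis and Control livers. Without liver 5 of each group, its mean was 0.0257 CPM in Cirrhosis-PTH and 0.673 CPM in Cirrhosis livers. The Etv6 circle was above 0 in 2 Cirrhosis-PTH, 6 Cirrhosis and 4 Control livers, and that of Ubl5 in 5, 6 and 3. Every listed circRNA was above 0 in at least 9 libraries, and every one compared here in at least 12. Snx5, Etv6 and Ubl5 reach either number only with the Cirrhosis livers. Their group differences and their likeness to Pvt1 are thus no support for a shared difference.

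Part of the likeness went with the summed circRNA level. On the share of listed reads the median rank correlation over the 270 was -0.07, 10 were above 0.5, and the highest was Snx5 at 0.79. Vapa then had 0.68, Ubl5 0.63, Etv6 0.62, Med13l 0.50, Rmnd5a 0.45, Gsap 0.45 and Lrrc58 0.27. Of the 8 named circRNAs, 4 were also among the 8 most alike on this scale. Without Cirrhosis livers 4 and 6, the 2 libraries farthest from the median Pvt1 level, the rank correlation over the other 16 was 0.79 for Vapa, and from 0.51 to 0.66 for the other 7. Within groups of 6 livers Vapa had a rank correlation of 1.0 in Cirrhosis-PTH, 0.71 in Cirrhosis and 0.43 in Control, and Snx5 had 0.58, 0.60 and -0.21 in that order.

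The circRNAs least alike were those of Arhgap32 (a GTPase-activating protein; rank correlation of -0.47), Atrnl1 (attractin-like 1; -0.47) and Dpyd (dihydropyrimidine dehydrogenase, which starts pyrimidine breakdown; -0.46). The Arhgap32 circle averaged 0.702 ± 0.425 CPM in Cirrhosis-PTH livers, 0.206 ± 0.235 CPM in Cirrhosis livers and 0.812 ± 0.719 CPM in Control livers. It was listed at 0 in Cirrhosis livers 4, 5 and 6, the 3 with the most Pvt1, and in 1 Control liver. Cirrhosis livers 1, 2 and 3 held only 3, 3 and 4 reads of it, so these zeros lie near the floor. These circles were of low abundance, with 45 to 126 reads over all libraries, and without Cirrhosis livers 4 and 6 their rank correlations lay between -0.29 and -0.24.

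**Figure D4:**
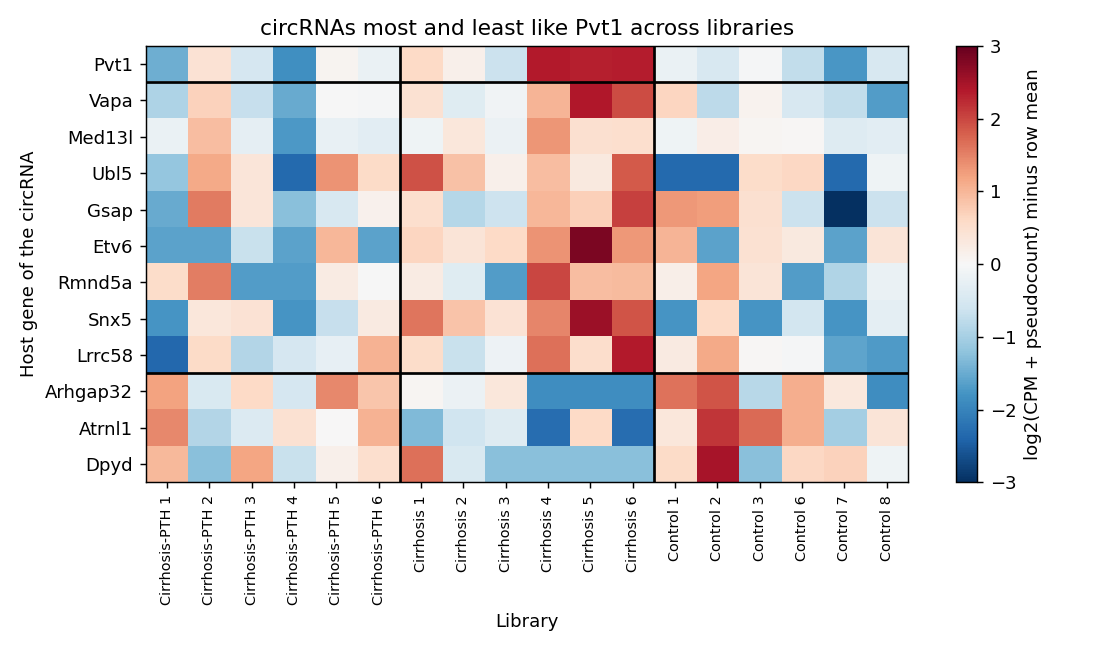
Level of Pvt1 (top), of the 8 circRNAs most like it and of the 3 least like it in each liver, as log2(CPM + 0.143) minus the mean of the circRNA over the 18 livers (colour), with libraries grouped as Cirrhosis-PTH, Cirrhosis and Control. Cirrhosis livers 4, 5 and 6 are red in most of the 8 most alike, and Arhgap32 is listed at 0 in all 3.

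In structure, Pvt1 belongs to a small class of the listed circles. Both ends fell on exon ends of a single transcript for 435 circRNAs, and 18 of these were made of a single exon, 13 of them exon 2 of their transcript. The single-exon circles were 143 to 5772 bases long with a median of 312.5, close to the 318 of Pvt1. The GC content of the Pvt1 circle was 47.2%, against a median of 46.0% over the 435. Long introns flank the exon: 68946 bp before it, the 13th longest of 434, and 41773 bp after it, the 46th longest, where the medians were 11665 and 10469 bp. By the shorter of the 2 flanking introns Pvt1 was 9th of 434. These are properties of the gene and do not depend on the groups.

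**Figure D5:**
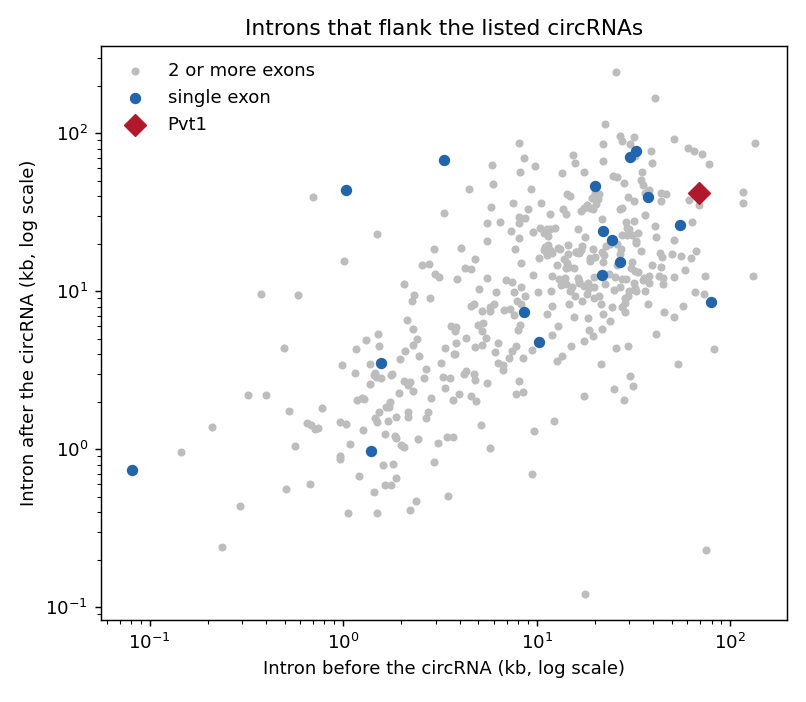
Length of the intron before (horizontal axis) and after (vertical axis) each of 434 listed circRNAs in kb, both on log scales, with circles of 2 or more exons in grey, of a single exon in blue and Pvt1 as a red diamond. Pvt1, with 68946 bp before and 41773 bp after, lies at the long end of both axes.

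Only 6 of the listed circRNAs had a long non-coding host gene, counted as the classes long intergenic non-coding RNA and processed transcript. Other non-coding classes were not counted. Among the 6, both ends fell on exon ends of a single transcript only for Pvt1 and 9030622O22Rik. The other hosts rest on position or on 1 matching end. Pvt1 had the highest mean of the 3 group means among the 6. In Control livers alone Gm34667 had the higher mean, but its median there was lower, at 0.723 CPM against 1.19 CPM for Pvt1. By the mean of the 3 group means Gm34667 came next, with 0.196 ± 0.194 CPM in Cirrhosis-PTH livers, 0.634 ± 0.513 CPM in Cirrhosis livers and 1.31 ± 1.3 CPM in Control livers. Lncpint, a p53-induced long non-coding RNA, gave 2 circles with group means of 0.280 to 0.692 CPM. The circle of 9030622O22Rik averaged 0.367 ± 0.331 CPM in Cirrhosis-PTH livers, was listed at 0 in all 6 Cirrhosis livers, and averaged 0.362 ± 0.343 CPM in Control livers. It was above 0 in 9 libraries, the fewest that any listed circRNA had, so it is listed only through the Cirrhosis-PTH and Control livers. The last of the 6, Gm14636, had group means of at most 0.260 CPM. Among the other 5, Cirrhosis had the highest group mean for 2, Gm14636 and the Lncpint circle that starts at 31139729. The nearest listed circRNAs on either side of it on chromosome 15 were those of Mtss1, 3134588 bp before its start, and of Trappc9, 10892507 bp after its end. Mtss1, an actin and membrane-binding protein, averaged 0.609 CPM in Cirrhosis-PTH livers, 0.245 CPM in Cirrhosis livers and 0.478 CPM in Control livers.

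Genes tied to Pvt1 by background knowledge were looked up as lists. Of 32 genes of the MYC network and MYC turnover, 3 hosted 4 listed circRNAs (Mlxipl with 2, Mga and Trim33), and Myc hosted none. Of these, 0 passed the adjusted threshold in any comparison (0% over all), and 1 of 4 had an unadjusted p under 0.05 in Cirrhosis against Control (Trim33, beside 12.2% over all circRNAs) and in Cirrhosis-PTH against Cirrhosis (the Mlxipl circle that starts at 135121506, beside 7.17%). Trim33 was above 0 in 2 Cirrhosis-PTH, 5 Cirrhosis and 2 Control livers, and this Mlxipl circle in 5, 2 and 5. Trim33 reaches the 9 libraries that every listed circRNA had only with the Cirrhosis livers, and this Mlxipl circle only with the Cirrhosis-PTH livers. These 2 counts are thus no support for a difference. The median fitted difference of the 4 was 0.01 in Cirrhosis against Control and 0.53 in Cirrhosis-PTH against Cirrhosis, where all circRNAs had 0.12 and -0.17. Of 12 genes of Polycomb repressive complex 2, which human PVT1 has been described as binding, Eed and Rbbp4 hosted a circRNA each. Eed had fitted differences of 1.80 ± 0.54 in Cirrhosis against Control and -1.11 ± 0.54 in Cirrhosis-PTH against Cirrhosis, and Rbbp4 had -0.89 and -0.59. Neither passed the adjusted threshold. Eed had an unadjusted p under 0.05 in these 2 comparisons (12.2% and 7.17% over all circRNAs), and Rbbp4 in Cirrhosis-PTH against Control, at -1.48 ± 0.60 (5.27% over all). Rbbp4 was above 0 in 9 libraries, 1 of Cirrhosis-PTH, 3 of Cirrhosis and 5 of Control, with 3 reads in Cirrhosis-PTH. It reaches the number that every listed circRNA had only with the Control livers, so its low Cirrhosis-PTH value is no support for a difference.

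Of 29 genes of TGF-beta and Hedgehog signalling, the pathways that drive liver scar formation, 4 hosted a circRNA (Rock1, Acvr2a, Smad4 and Smad1), and 0 passed the adjusted threshold. Of the 4, 1 had an unadjusted p under 0.05 in Cirrhosis against Control (12.2% over all circRNAs), 0 in Cirrhosis-PTH against Cirrhosis (7.17%) and 1 in Cirrhosis-PTH against Control (5.27%), Rock1 both times. Rock1, a kinase of the actin cytoskeleton, averaged 1.14 ± 0.815 CPM in Cirrhosis-PTH livers, 2.08 ± 2.27 CPM in Cirrhosis livers and 0.190 ± 0.247 CPM in Control livers. Its fitted difference of 2.63 in Cirrhosis against Control was the highest of all 474, and Cirrhosis liver 6 alone gave 6.64 CPM. Of 16 genes of the p53 pathway, Hipk3 hosted the 1 listed circRNA, which passed neither the adjusted nor the unadjusted threshold. The tables thus hold few circles of these pathways, and most of the lists could not be measured.

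Markers of other liver cells were read from their circRNAs. Of 14 genes of macrophages and Kupffer cells, Adgre1 (with 2 circles) and Mertk hosted 3 listed circRNAs. Their summed level ran from 0.149 to 1.19 CPM in Cirrhosis-PTH livers, from 0.184 to 6.76 CPM in Cirrhosis livers and from 0 to 1.02 CPM in Control livers, so it moved with Pvt1 between groups. In Cirrhosis livers 1 to 6 it was 1.74, 3.18, 1.94, 4.59, 6.76 and 0.184 CPM. Cirrhosis liver 6, with 9.41 CPM of Pvt1, had 1 macrophage read in all. Of the 3, 0 passed the adjusted threshold, and 2 had an unadjusted p under 0.05 in Cirrhosis against Control (12.2% over all circRNAs) and 1 in Cirrhosis-PTH against Cirrhosis (7.17%). These were circles of Adgre1 each time. The Adgre1 circles were above 0 in 6 and 5 Cirrhosis livers, 5 and 3 Cirrhosis-PTH livers, and 2 Control livers each. They reach the 9 libraries that every listed circRNA had only with the Cirrhosis livers. The counts, and the Adgre1 part of the sum, are thus no support for a difference. The part of macrophage numbers in the Pvt1 differences was not tested. Of 10 genes of proliferating cells, 2 hosted a circRNA each, and 0 passed the adjusted threshold. Their summed level had a median of 0.411 CPM in Cirrhosis-PTH livers (0 to 1.34), 1.21 CPM in Cirrhosis livers (0.365 to 1.93) and 0.270 CPM in Control livers (0 to 1.85), so these medians too were highest in Cirrhosis. In Cirrhosis livers 1 to 6 it was 0.938, 1.48, 1.55, 1.93, 0.365 and 0.922 CPM, which did not follow the order of Pvt1. The circle of Prim2, a subunit of DNA primase, was listed at 0 in all 6 Control livers. It was above 0 in 10 libraries, 5 of Cirrhosis-PTH and 5 of Cirrhosis, and every listed circRNA was above 0 in at least 9. It is thus listed only through those 2 groups, and its zeros in Control livers are no support for a difference. Of the 2 circles, 1 had an unadjusted p under 0.05 in Cirrhosis against Control, 0 in Cirrhosis-PTH against Cirrhosis and 1 in Cirrhosis-PTH against Control (12.2%, 7.17% and 5.27% over all). It was Prim2 both times, so these counts carry the same limit. The part of proliferation in the Pvt1 differences was not tested. Of 9 lymphocyte genes Ikzf1 hosted 1 circRNA, which did not pass either.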

How the data were processed

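Each of 18 libraries is the liver of 1 mouse, 6 per group. The deposited table gives CPM of back-splice reads for 474 circRNAs, named by GRCm38 coordinates per the file headers. The circRNA caller and the total behind CPM are not given in the sources used here. HISAT2 2.2.1, StringTie 2.1.5, cutadapt 4.2, Bowtie 1.3.1, Trim Galore and Bowtie2 are named in the submitters' processing notes, without their roles. No step that removes linear RNA is named in the labels' protocols.

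Multiples of the lowest CPM step gave whole reads for 100% of 5886 values above 0 (within 0.01 read), and totals of 2706146 to 29164326 behind the CPM. The 3 comparisons were fitted in 1 limma 3.58.1 model of log2(CPM + 0.143) over all 18 libraries and 474 circRNAs, with Benjamini-Hochberg adjustment. The pseudocount, 0.143 CPM, understates changes of low circRNAs. edgeR 4.0.16 and DESeq2 1.42.0 on the recovered reads were alternatives. The fits were tested on simulated data. Hosts, exons and sequence come from GENCODE M21, and microRNAs from RefSeq (GRCm38.p6).

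The named circRNAs are the 8 most and 3 least like Pvt1, its neighbours in mean level and on the chromosome, those with long non-coding hosts, and those of the gene lists. Pvt1 and the lists were chosen with earlier results of these data known. Replicates of a group differed by more than counting noise (chi-square per degree of freedom 2.11 to 5.85 over 45 pairs), so none was counted as a repeat. Intervals cover counting error only.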

Additional observations from a re-analysis of the deposited data

Results flagged for a closer look

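In groups of 6 livers, a value was singled out by its gap to the next, divided by the group's range. This ratio had to exceed the 95% critical value of Dixon's test. Chance gives that in about 5% of groups when the values are normally distributed. Many values here are low counts or 0, so the 5% is no benchmark for them. Of 129 groups of values from 43 circRNAs described here, 20 were. Pvt1 was in none of them. The rule measures only the gap from a single value to the next, and does not flag high livers that lie close together. Cirrhosis livers 4, 5 and 6 had 9.43, 9.13 and 9.41 CPM of Pvt1, so the rule does not address their distance from the other Cirrhosis livers. No conclusion about the spread of Pvt1 is drawn from it.

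Among the circRNAs most like Pvt1, Med13l had 4.01 CPM in Cirrhosis-PTH liver 2 and 5.32 CPM in Cirrhosis liver 4. Gsap had 4.01 CPM in Cirrhosis-PTH liver 2. Etv6 had 0.715 CPM in Cirrhosis-PTH liver 5 and 2.92 CPM in Cirrhosis liver 5. Among those least alike, Dpyd had 0.938 CPM in Cirrhosis liver 1 and 1.78 CPM in Control liver 2. Without Cirrhosis liver 1 the mean of Dpyd in Cirrhosis livers was 0.0212 CPM, and with it 0.174 CPM.

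Nfix had 6.51 CPM in Control liver 2. Of the long non-coding hosts, the circle of Lncpint that starts at 31139729 had 1.11 CPM in Control liver 1. The one that starts at 31166476 had 1.10 CPM in Cirrhosis liver 5, and Gm14636 had 0.298 CPM in Cirrhosis-PTH liver 4.

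Among the listed genes, Rock1 had 6.64 CPM in Cirrhosis liver 6, and its mean in Cirrhosis livers was 1.17 CPM without that liver and 2.08 CPM with it. Smad4 had 0.944 CPM in Cirrhosis-PTH liver 2. The Mlxipl circles had 0.647 CPM in Cirrhosis liver 3 and 1.11 CPM in Cirrhosis liver 6. Trim33 had 0.953 CPM in Cirrhosis-PTH liver 5, Rbbp4 had 0.224 CPM in Cirrhosis-PTH liver 4, 1 of the circles of the proliferating-cell list had 1.03 CPM in Cirrhosis-PTH liver 6, and Hipk3 had 1.05 CPM in Cirrhosis-PTH liver 1 and 1.85 CPM in Control liver 1.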

How the results depend on the processing

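The fitted Pvt1 difference kept its sign in all 24 alternatives for Cirrhosis against Control and for Cirrhosis-PTH against Cirrhosis, and in 17 of 24 for Cirrhosis-PTH against Control, where it was near 0. The row filters and the fit on only the compared groups could not change the difference itself. Leaving out 1 liver could not remove Cirrhosis livers 4, 5 and 6, the highest in Pvt1, together. The count of alternatives thus overstates the number of separate checks. Leaving out 1 liver gave 1.57 to 2.18 for Cirrhosis against Control, -2.15 to -1.52 for Cirrhosis-PTH against Cirrhosis and -0.20 to 0.28 for Cirrhosis-PTH against Control. The other settings gave 0.98 to 2.28, -2.11 to -1.26 and -0.07 to 0.25. Mean Pvt1 CPM without 1 liver was 1.07 to 1.47 in Cirrhosis-PTH, 4.83 to 6.51 in Cirrhosis and 1.04 to 1.3 in Control. Replicate numbers did not pair the livers (correlations of -0.057 to 0.082 over 14 same-numbered pairs). With a replicate block the differences were 0.98 ± 0.80, -1.78 ± 0.60 and -0.07 ± 0.73 (SE), on 4, 6 and 4 shared numbers, and 0 circRNAs were called. For Cirrhosis against Control, keeping the shared numbers left out Cirrhosis livers 4 and 5, which were high in Pvt1, and Control livers 7 and 8. Its 0.98 thus reflects fewer livers as well as the block. Calls over all 474 in Cirrhosis against Control numbered 2 with median centring (Hnrnpu and Ube2g2), 1 with DESeq2 (Ube2g2) and 0 to 1 with a liver left out (Rock1 without Control liver 3). In Cirrhosis-PTH against Cirrhosis they numbered 1 with edgeR with or without TMM scaling, 1 with DESeq2 and 0 to 1 with a liver left out (1 without Cirrhosis liver 1, 2 or 3), each time Wac. These circRNAs were named after their values were seen. The cause was not tested. In Cirrhosis-PTH against Control there were 0 throughout. Of the 8 circRNAs most like Pvt1, 4 were shared on the share of listed reads, 7 with Pearson's r and 6 to 8 with a liver left out. Depth limits the low values most: 3 of the 18 Pvt1 values rest on 4 reads and 1 on 3.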
